A study of Homo sapiens with 2 samples.

Results

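Heat shock proteins are the cell's chaperones, and 75 of the 60619 genes of the deposited table make up the set described here. They are the genes whose symbols begin with HSPA, HSPB, HSPH1, HSP90A, HSPD1, HSPE1 or DNAJ, with the transcription factor genes HSF1 and HSF2. These symbols gave 173 genes, from which 90 pseudogenes, 5 antisense RNAs and 3 further genes (HSPA5, DNAJB9 and HSPBP1) were left out. The genes were picked by symbol and not by a threshold on any measured value, but earlier results of these data were known when the set was chosen. Of the 75, 56 were measured, meaning that they reached 10 counts in 1 library and averaged 1 CPM (count scaled to library size) or more, as did 13304 genes of the whole table.

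Total RNA was sequenced from HBEC-3KT, a line of human bronchial epithelial cells immortalized with CDK4 and telomerase. In the first of 2 groups, a pLenti6 lentivirus had brought in human CBS, which encodes cystathionine beta-synthase, the enzyme that joins homocysteine and serine. The other group had received the pLenti6 virus without an insert. Virus was left on the cells of either group for 4 to 8 hours, blasticidin (10 µg/mL) removed cells that had not taken it up, and growth on gelatin lasted 4 to 5 days, so transduction and the drug are common to both. Which promoter drives CBS in this vector was not given. The study asked how CBS expression bears on Polycomb repressive complex 2. Each group held 1 library, so no difference given here has a replicate check, and conditions could not be tested against each other.

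The libraries held 20785957 estimated counts with CBS, against 20433062 with the empty vector. CBS and its near-identical copy CBSL summed to 8047 against 623 counts, 12.1-fold higher with CBS (95% counting interval 11.1 to 13.1), the direction the labels give. Summed basal airway markers were at 9853 CPM with CBS, against 16217 with the empty vector over 11 genes, and summed general epithelial markers at 6522 and 5983 CPM over 5. Within the basal sum, NGFR (2294 against 1120 counts) and DLK2 (631 against 535) went the other way. TP63 had 5136 against 4946 counts and, like DLK2, an interval that held a ratio of 1. Within the general epithelial sum, CDH1 (6055 against 6702 counts) and KRT19 (52241 against 62173) went the other way. Ciliated markers summed to 7.60 and 5.47 CPM over 9 genes, with FOXJ1 and DNAI1 at 0. DNAH5 gave 94 of the 162 ciliated counts with CBS and 26 of the 109 with the empty vector. CAPS (37 against 41 counts) and PIFO (2 against 13) were among those that went the other way. Fibroblast markers summed to 6.24 and 13.7 CPM over 6, with COL1A2, COL3A1, DCN and LUM at 0. COL1A1 gave 132 of the 133 fibroblast counts with CBS and 270 of the 273 with the empty vector. Secretory markers summed to 0.0938 and 0.552 CPM over 5 genes with SCGB3A1 at 0, endothelial markers to 4.17 and 0.753 CPM over 4 with KDR at 0, and immune markers to 10.7 and 10.5 CPM over 5, with PTPRC, CD3E and LYZ at 0. CDH5 alone gave 87 of the 89 endothelial counts with CBS and 7 of the 15 with the empty vector, while PECAM1 had 1 against 8. CD14 gave 225 of the 228 immune counts with CBS and 203 of the 210 with the empty vector.

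Chaperones bind unfolded or partly folded proteins, keep them from aggregating and help them fold. HSP70 proteins do so in cycles of ATP use that are started by J-domain (DNAJ) partners and ended by nucleotide exchange factors such as the HSP110 proteins. HSP90 takes over late folding of kinases and receptors, the chaperonin HSP60 folds proteins inside mitochondria, and small heat shock proteins hold unfolding proteins without ATP. When unfolded proteins build up, the transcription factor HSF1 forms trimers, binds heat shock elements in the promoters of many of these genes and raises their transcription.

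The promoters that follow are those of genes the results turn on, shown with the letters HSF1 is known to recognise. A heat shock element is made of GAA units that alternate with their complement TTC, each separated by 2 free bases. The 2-unit form was searched as GAANNTTC and TTCNNGAA, each of which reads the same on the opposite strand. The 3-unit form has 1 more unit in step with the others, was searched on both strands, and always contains a 2-unit form. Printed are the 250 bases before the RefSeq gene start (GRCh38.p14), 5′ to 3′ on the strand of the gene, with matches of either form in capitals. HSPA8 (chr11:123062137-123062386, minus strand), HSP90AA1 (chr14:102087045-102087294, minus strand, 1 of 2 starts in the table) and HSPD1 (chr2:197499841-197500090, minus strand, 1 of 2 starts) hold the 3-unit form. For genes with more than 1 start, the start with the most matches was printed. The other start of HSP90AA1 and that of HSPD1 held no match. HSPA1A (chr6:31815293-31815542, plus strand), HSPA1B (chr6:31827488-31827737, plus strand) and HSPB1 (chr7:76302423-76302672, plus strand) hold the 2-unit form.
HSPA8: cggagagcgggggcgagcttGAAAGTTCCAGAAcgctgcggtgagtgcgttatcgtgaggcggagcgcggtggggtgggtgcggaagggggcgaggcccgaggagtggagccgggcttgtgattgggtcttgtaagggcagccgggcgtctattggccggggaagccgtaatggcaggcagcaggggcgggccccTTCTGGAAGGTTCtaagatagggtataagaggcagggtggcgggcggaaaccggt
HSP90AA1: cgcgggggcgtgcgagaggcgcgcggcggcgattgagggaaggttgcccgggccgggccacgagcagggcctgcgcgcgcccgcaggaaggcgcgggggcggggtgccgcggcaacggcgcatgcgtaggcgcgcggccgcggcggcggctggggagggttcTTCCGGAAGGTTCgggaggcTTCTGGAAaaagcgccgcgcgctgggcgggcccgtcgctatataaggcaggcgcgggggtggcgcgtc
HSPD1: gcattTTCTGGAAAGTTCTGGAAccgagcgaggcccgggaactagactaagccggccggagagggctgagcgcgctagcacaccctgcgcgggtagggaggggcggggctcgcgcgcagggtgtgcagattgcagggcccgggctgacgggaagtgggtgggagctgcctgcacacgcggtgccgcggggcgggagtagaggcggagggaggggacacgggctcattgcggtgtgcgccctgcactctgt
HSPA1A: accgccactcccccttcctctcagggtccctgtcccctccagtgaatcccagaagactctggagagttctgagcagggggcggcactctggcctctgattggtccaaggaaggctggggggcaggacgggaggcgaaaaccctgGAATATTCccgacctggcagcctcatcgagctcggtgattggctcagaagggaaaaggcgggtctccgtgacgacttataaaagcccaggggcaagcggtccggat
HSPA1B: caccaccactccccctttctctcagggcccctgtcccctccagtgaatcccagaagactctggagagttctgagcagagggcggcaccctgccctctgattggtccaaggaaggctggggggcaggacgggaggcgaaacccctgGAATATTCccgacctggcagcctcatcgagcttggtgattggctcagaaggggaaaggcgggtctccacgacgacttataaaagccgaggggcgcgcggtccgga
HSPB1: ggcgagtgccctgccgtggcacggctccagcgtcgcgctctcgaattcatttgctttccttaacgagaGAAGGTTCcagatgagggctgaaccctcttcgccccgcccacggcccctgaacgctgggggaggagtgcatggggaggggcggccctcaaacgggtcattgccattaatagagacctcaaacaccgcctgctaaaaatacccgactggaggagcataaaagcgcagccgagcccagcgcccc

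HSPA8 holds a 3-unit element at positions -230 to -218 and another at -55 to -43, counted from the start with -1 the base before it. In HSP90AA1 the 3-unit element lies at -88 to -76, and in HSPD1 an overlapping pair spans -245 to -233 and -240 to -228. HSP90AB1, at a log2 fold of 0.57, holds 3-unit elements at -165 to -153 and at -112 to -100. DNAJB6, at a log2 fold of 0.10, holds one at -131 to -119. Over 249 aligned bases, the upstream stretches of HSPA1A and HSPA1B differ at 14. In the window from 250 bases before to 50 after the start, 6 of the 51 measured members with a promoter in the table (11.8%) held the 3-unit form, against 45 of 9352 measured genes (0.481%) and 0.608% of the 27305 genes of the promoter table. The 2-unit form, which every 3-unit match includes, was held by 16 of the 51 (31.4%), against 13.8% of measured genes and 16.2% of the whole table. A gene with several starts was counted as holding a form if any of its windows did. HSPA6, which lay below the filter, also held the 3-unit form, at -74 to -62. A match is a string of letters and not a measured binding site.

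**Figure D1:**
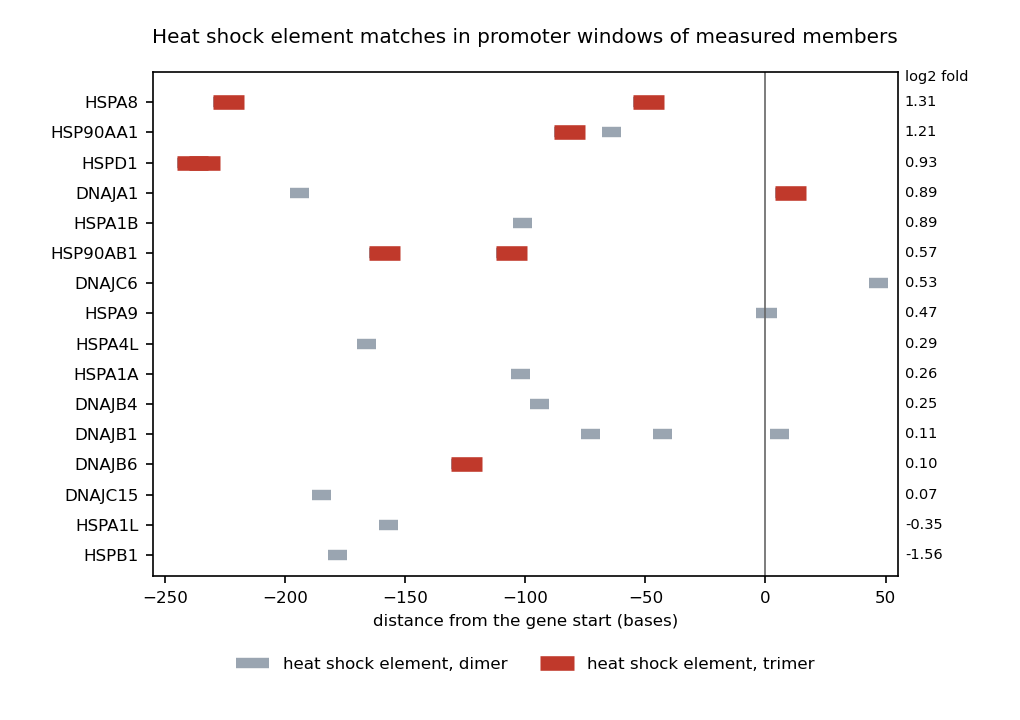
Positions of heat shock element matches in the promoter windows of the 16 measured members that hold one, by distance in bases from the gene start, ordered by log2 fold (printed at the right). Red bars are 3-unit matches and grey bars 2-unit matches; the 3-unit matches sit in members with log2 folds from 0.10 to 1.31, and HSPB1, at the bottom, has a 2-unit match only.

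Among measured members, those with a 3-unit element had log2 folds of 0.10 to 1.31, with a median of 0.91 over 6 genes. For the 10 measured members with only the 2-unit form the median was 0.25, with log2 folds from -1.56 to 0.89. For the 35 with neither it was 0.18, from -1.28 to 0.95, so the ranges overlap. The highest with neither was HSPE1, which lies beside HSPD1 on the opposite strand. Over all measured genes the 3-unit form went with a median log2 fold of 0.045 (45 genes, those 6 included, 3 at least 2-fold higher and 2 at least 2-fold lower), against 0.021 for the 8063 genes with neither form. All 6 chaperone genes sat above the median of the 45, of which they are a part. Of the 35 members with neither form, 25 had a log2 fold above 0, where 50.2% of all measured genes did. The members with a 3-unit match were also the more abundant ones, at a median of 616 CPM in the empty-vector library against 33.9 CPM for those with neither.

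The heat shock factors themselves differed in direction. HSF1 (GRCh38 chromosome 8, 144291591 to 144314722), the main activator of the response, had 2780 counts with CBS, against 3206 with the empty vector, or 130.4 against 160.9 CPM. It was 1.23-fold lower with CBS (1.17 to 1.299), and its log2 fold of -0.303 became -0.036 once the trend of folds on transcript GC content and length was removed. HSF2 (chromosome 6, 122399546 to 122433119), a related factor that can form mixed trimers with HSF1, had 213 against 142 counts, or 9.99 against 7.13 CPM, and was 1.40-fold higher (1.13 to 1.75). HSF1 is switched on by trimer formation and modification of the protein, which transcript counts do not measure.

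The cytosolic HSP70 genes HSPA8, HSPA1A and HSPA1B, both cytosolic HSP90 genes and both genes of the mitochondrial chaperonin were higher in the CBS library, and the small heat shock protein HSPB1 was lower. Of the 56 measured members, 2 were at least 2-fold higher with an interval above a ratio of 1 (3.57%), where 1.42% of the 13304 measured genes were. At least 2-fold lower were 3 members (5.36%), beside a background of 5.28%. At a fold of 1.5, 9 members were higher (16.1%, background 7.02%) and 5 lower (8.93%, background 12.9%). An interval above a ratio of 1 was found for 34 members (60.7%, background 31.6%) and one below it for 10 (17.9%, background 31.1%). These intervals cover counting error only, and they are narrower for abundant genes. In bulk RNA, fewer cells of a kind and less RNA per cell cannot be told apart. The median log2 fold of the 56 was 0.24, against 0.0022 over all measured genes. Summed over all 75 members, 236345 counts with CBS stood beside 144351 with the empty vector, 1.53-fold higher (1.52 to 1.54).

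**Figure D2:**
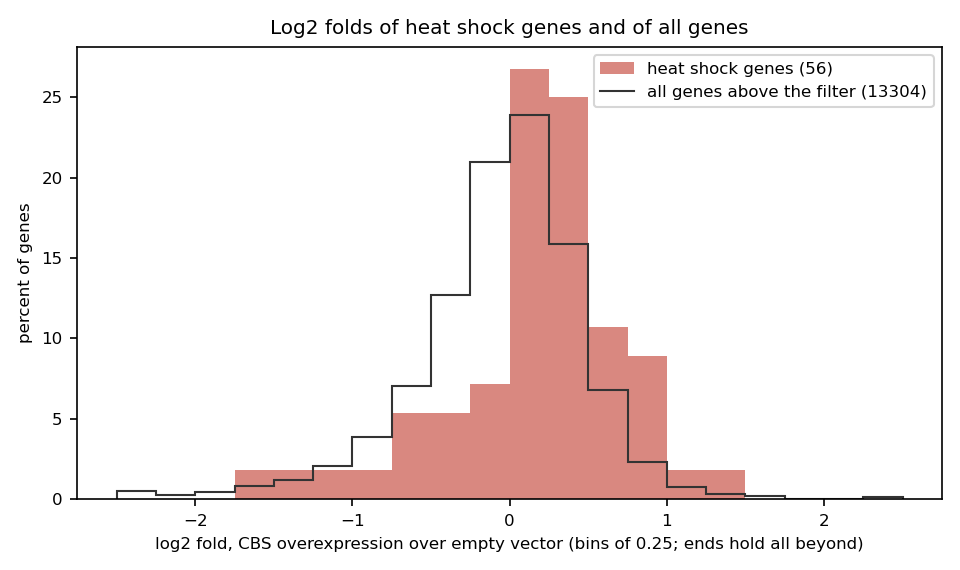
Share of genes (percent) by log2 fold of CBS overexpression over empty vector, in bins of 0.25, for the 56 measured heat shock genes (filled) and all 13304 measured genes (line). The filled bars sit to the right of the line: 42 of the 56 heat shock genes, and 50.2% of all genes, had a log2 fold above 0.

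HSPA8 had the highest log2 fold of the measured members. It encodes HSC70, the constitutive cytosolic HSP70 that folds new proteins and uncoats clathrin vesicles, and lies on chromosome 11 (123057489 to 123063230). Its counts were 54079 with CBS and 20373 with the empty vector, or 2537 against 1023 CPM. This is 2.48-fold higher with CBS (2.44 to 2.52), a log2 fold of 1.31 that ranked 78 of 13304 genes. On the TPM scale, which also divides by transcript length, HSPA8 was at 1864 with CBS and 694.7 with the empty vector. By level it ranked 69 among all genes with CBS, and 201 with the empty vector.

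The stress-inducible HSP70 genes HSPA1A and HSPA1B encode the same protein and lie 9788 bases apart on chromosome 6 (31815464 to 31817946 and 31827735 to 31830255). HSPA1A had 3388 counts with CBS, against 2651 with the empty vector, 1.19-fold higher (1.14 to 1.26). HSPA1B had 4507 against 2271 counts, 1.85-fold higher (1.76 to 1.95). Per length, HSPA1A was at 0.880 times the TPM of HSPA1B in CBS-overexpressing cells and at 1.33 times in cells with the empty vector. Because the copies are nearly alike in sequence, how reads were divided between them is uncertain, and their sum of 7895 against 4922 counts, 1.499-fold higher (1.45 to 1.55), is the safer value. With the GC and length trend removed, the log2 fold of HSPA1A was 0.43 in place of 0.26, and HSPA1B passed 2-fold at 1.04. HSPA6, a human HSP70 gene that is nearly silent without strong stress, had 6 counts with CBS, against 10 with the empty vector, and lay below the filter.

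Of the other HSP70 genes, HSPA9, the mitochondrial HSP70 (mortalin) that pulls proteins through the inner membrane, had 10448 against 7028 counts, 1.39-fold higher (1.35 to 1.43). HSPA14, which works at the ribosome with the J-domain protein DNAJC2, had 703 against 455 counts, 1.44-fold higher (1.28 to 1.63). Both were above a ratio of 1 by more than counting error. Lower were HSPA13, an HSP70 relative of the endoplasmic reticulum, with 432 against 676 counts (1.67-fold lower, 1.48 to 1.89), and HSPA2, a testis-enriched form, with 99 against 165 counts (1.78-fold lower, 1.38 to 2.31). HSPA1L, another testis-enriched form, had 19 against 24 counts and an interval that held a ratio of 1. HSPA12A had 16 against 10 counts and HSPA12B had 1 against 6. The 11 HSP70 genes together gave 73698 against 33669 counts, 2.05-fold higher (2.02 to 2.07). HSPA8 made up 74.0% of their summed TPM with CBS and 61.5% with the empty vector.

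**Figure D3:**
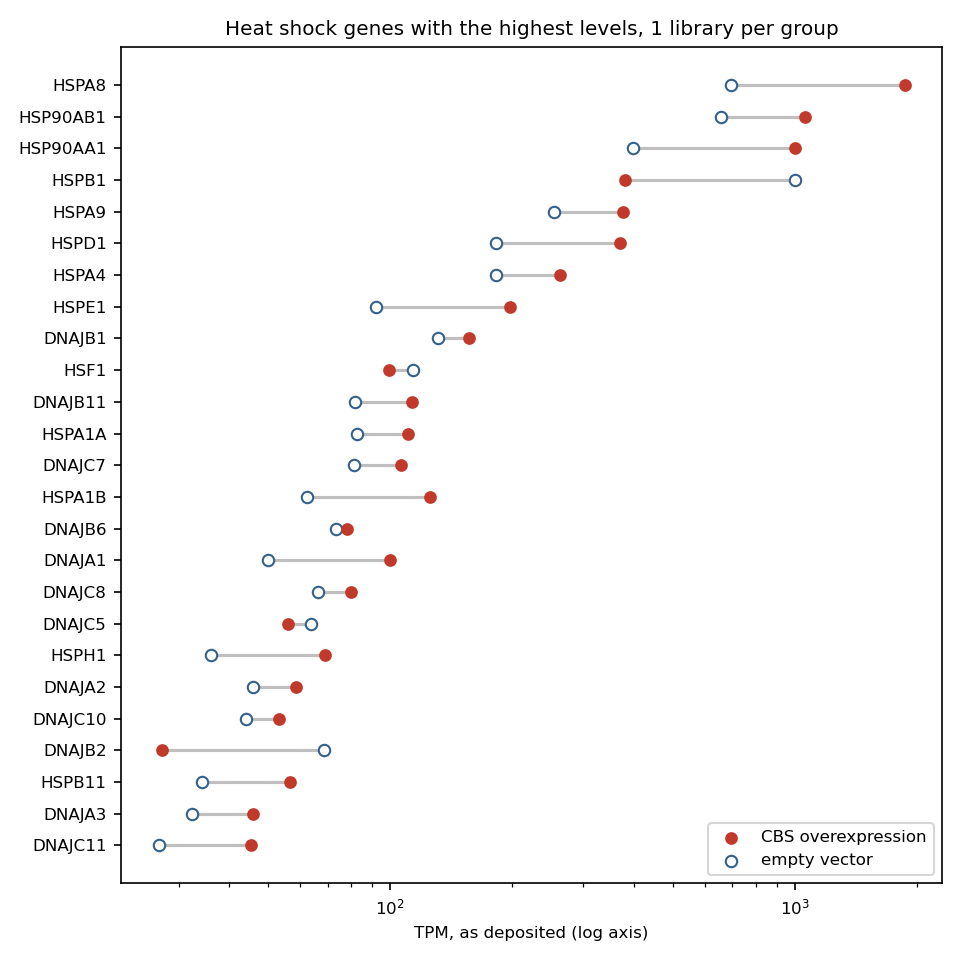
TPM, as deposited, on a log axis, of the 25 heat shock genes with the highest mean level, with CBS overexpression as filled circles and empty vector as open circles, 1 library each. HSPA8 stands furthest right with CBS at 1864 TPM; 4 of the 25 lie lower with CBS than with the empty vector, namely HSPB1 (380.4 against 997.9 TPM), HSF1 (99.5 against 113.5), DNAJC5 (55.8 against 63.6) and DNAJB2 (27.3 against 68.6).

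The HSP110 genes encode large relatives of HSP70 that serve as its nucleotide exchange factors. HSPH1 had 3313 counts with CBS, against 1740 with the empty vector, 1.78-fold higher (1.68 to 1.89). HSPA4 had 7780 against 5756 counts (1.26-fold, 1.22 to 1.31) and HSPA4L had 1677 against 1285 (1.22-fold, 1.13 to 1.31). All of the 3 genes lay above a ratio of 1, HSPH1 the furthest, and their sum was 1.36-fold higher (1.32 to 1.40).

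The cytosolic HSP90 forms were both higher, by unequal amounts. HSP90AA1, the form more responsive to stress, on chromosome 14 (102080738 to 102139699), had 47924 counts with CBS, against 19421 with the empty vector, 2.31-fold higher (2.27 to 2.35). HSP90AB1, the constitutive form, on chromosome 6 (44246166 to 44253888), had 38735 against 24435 counts, 1.48-fold higher (1.46 to 1.51). On the TPM scale HSP90AA1 was at 996.8 with CBS and 397.4 with the empty vector, and HSP90AB1 at 1056 and 656.4. The level of HSP90AA1 was thus 0.944 times that of HSP90AB1 with CBS and 0.605 times with the empty vector. The intervals of their folds did not overlap.

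The mitochondrial chaperonin is built from HSPD1 (HSP60), which forms the folding chamber, and HSPE1 (HSP10), its lid. HSPD1, on chromosome 2 (197486581 to 197516737), had 10463 counts with CBS, against 5138 with the empty vector, 1.90-fold higher (1.84 to 1.97). HSPE1, beside it on the opposite strand (197499994 to 197503457), had 1626 against 782 counts, 1.94-fold higher (1.78 to 2.12). Each fold lay within the other's interval, and the TPM of HSPD1 was 1.87 times that of HSPE1 with CBS and 1.98 times with the empty vector. Annotated exons of the pair share 281 bases on opposite strands and the strandedness of the libraries was not given, so some reads of one could be counted for the other. Both passed 2-fold with plain library totals and in the authors' TPM. HSPE1-MOB4, a readthrough of HSPE1 into its neighbour, had 76 against 108 counts, and its reads cannot be told from those of its parents with certainty.

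**Figure D4:**
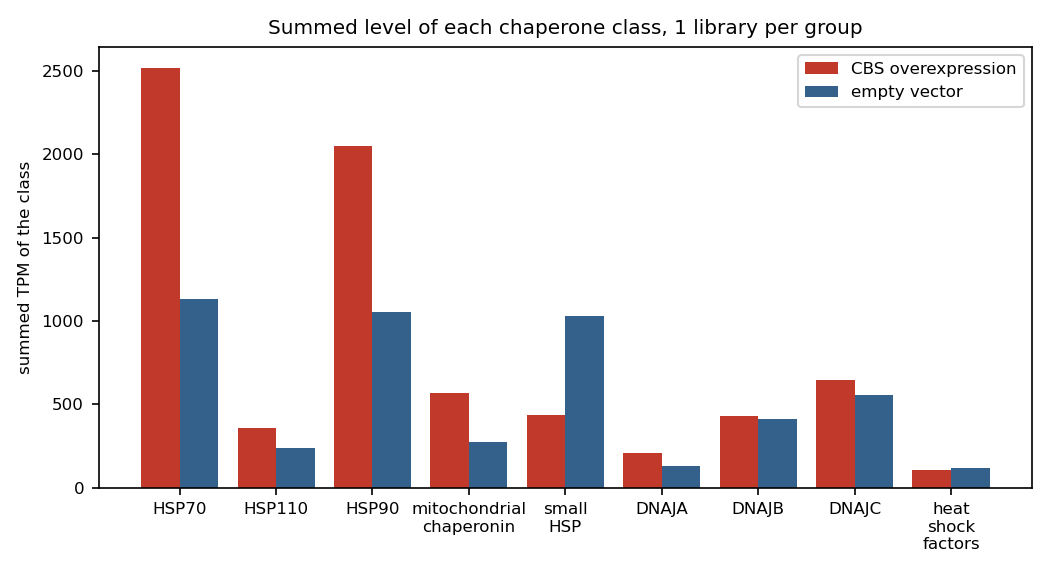
Summed TPM, as deposited, of the members of each class with CBS overexpression (red, left bar) and empty vector (blue, right bar), 1 library each. HSP70 sums to 2519 with CBS and 1130 with the empty vector and HSP90 to 2053 and 1054, while the small heat shock proteins sum to 437.4 with CBS and 1033 with the empty vector.

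Small heat shock proteins gave the member with the lowest log2 fold. HSPB1 (HSP27), which holds unfolding proteins and binds the actin cytoskeleton, lies on chromosome 7 (76302544 to 76304295). It had 4313 counts with CBS, against 11873 with the empty vector, or 202.3 against 595.9 CPM. That is 2.95-fold lower with CBS (2.84 to 3.05), a log2 fold of -1.56, or -1.303 with the GC and length trend removed. In the empty-vector library HSPB1 was the member with the highest TPM, at 997.9, and made up 20.1% of the summed TPM of the family. With CBS it was at 380.4 TPM and made up 5.17%. Summed basal airway markers were 1.65-fold lower (1.64 to 1.66) in the same cells. Of the 11 markers, 8 had an interval below a ratio of 1 (background 31.1%) and NGFR had one above it. The intervals of TP63 and DLK2 held a ratio of 1. What part these markers have in the HSPB1 value was not tested. HSPB11, named for this class but known as the intraflagellar transport protein IFT25, had 658 against 405 counts, 1.52-fold higher (1.34 to 1.72). None of the other small heat shock proteins passed the filter: HSPB8 had 7 against 4 counts, HSPB9 had 1 against 5, HSPB6 had 2 against 0, HSPB2 had 0 against 3, and HSPB3 and HSPB7 had none in either library.

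Type A J-domain proteins, which most resemble bacterial DnaJ, were higher wherever they were measured. DNAJA1, a cytosolic partner of HSPA8, had 3350 counts with CBS, against 1685 with the empty vector, 1.86-fold higher (1.75 to 1.97). DNAJA3, the mitochondrial form, had 1591 against 1130 counts (1.32-fold, 1.22 to 1.42), and DNAJA2, a second cytosolic form, had 1922 against 1473 (1.22-fold, 1.14 to 1.31). DNAJA1 stood apart from both others by more than counting error. DNAJA4, below the filter, had 10 counts in each library. The promoter window of DNAJA1 also held a 3-unit heat shock element, at 4 to 16 bases after the start.

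Type B members split. DNAJB2, which carries ubiquitin-interacting motifs and is enriched in neurons, lies on chromosome 2 (219279267 to 219286900). It had 746 counts with CBS, against 1705 with the empty vector, 2.45-fold lower (2.24 to 2.67). DNAJB5, a relative of DNAJB1 on chromosome 9 (34989641 to 34998900), had 124 against 265 counts, 2.29-fold lower (1.84 to 2.85). These were the members at least 2-fold lower besides HSPB1, although DNAJB5, at 4.02 TPM with CBS and 7.65 with the empty vector, fell short of 2-fold in TPM. DNAJB1, the main heat-inducible cytosolic HSP40, had 4703 against 4063 counts, 1.08-fold higher (1.04 to 1.13). DNAJB6, which keeps polyglutamine proteins from aggregating, had 2069 against 1807 counts (1.07-fold, 1.004 to 1.14), and DNAJB4 had 208 against 163, with an interval that held a ratio of 1. Among the forms of the endoplasmic reticulum, DNAJB11, a partner of the HSP70 of that compartment, had 2120 against 1636 counts (1.21-fold, 1.14 to 1.29). The membrane-bound DNAJB12 had 1455 against 1464 counts, with an interval just below a ratio of 1, and DNAJB14 had 586 against 548, with an interval that held it. The log2 folds of DNAJB6, DNAJB11 and DNAJB12 were 0.10, 0.28 and -0.11, and 0.19, 0.15 and 0.0075 with the GC and length trend removed. DNAJB7 had 0 against 1 count, and DNAJB8 and DNAJB13 had none. The class as a whole summed to 12011 against 11652 counts, and its fold of 0.963 (0.939 to 0.988) lay above 1 with plain library totals.

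Type C members, which share little beyond the J domain and bring HSP70 to particular sites, were 23 measured of 28, with a median log2 fold of 0.17. Their intervals lay above a ratio of 1 for 12, below it for 2 and held it for 9, beside 31.6% of all measured genes above and 31.1% below. None reached 2-fold, beside 1.42% of all genes higher and 5.28% lower. DNAJC11, an inner-membrane organiser of mitochondria, had 2141 counts with CBS, against 1264 with the empty vector, 1.58-fold higher (1.48 to 1.70). DNAJC6 (auxilin, clathrin uncoating) had 140 against 89 counts (1.47-fold, 1.12 to 1.94), and DNAJC13, an endosomal form, had 1161 against 755 (1.44-fold, 1.31 to 1.58). DNAJC2, the ribosomal partner of HSPA14, had 829 against 558 counts, 1.39-fold higher (1.25 to 1.55), close to the 1.44-fold of that partner. DNAJC3, an inhibitor of eIF2 kinases that also works in the endoplasmic reticulum, had 1289 against 904 counts (1.33-fold, 1.22 to 1.45). DNAJC9, a chaperone of histones H3 and H4, had 1442 against 1076 (1.25-fold, 1.16 to 1.36).

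Smaller differences above a ratio of 1 were those of DNAJC16 (533 against 405 counts), DNAJC7 (2224 against 1728), DNAJC10 (2808 against 2246), DNAJC14 (552 against 454), DNAJC8 (1810 against 1508) and DNAJC21 (1048 against 893), with folds from 1.10 to 1.23. Of these, DNAJC7 links HSP70 to HSP90, DNAJC10 reduces disulfides in the endoplasmic reticulum, DNAJC8 belongs to the spliceosome and DNAJC21 acts in ribosome assembly. Lower were DNAJC4, with 294 against 409 counts (1.49-fold lower, 1.28 to 1.74), and DNAJC5 (cysteine string protein, of secretory vesicles), with 4204 against 4870 (1.24-fold lower, 1.19 to 1.29). DNAJC5 was at a log2 fold of -0.31, or -0.16 with the GC and length trend removed. Intervals that held a ratio of 1 belonged to DNAJC24 (199 against 158 counts), DNAJC19 (312 against 260), DNAJC30 (365 against 306), DNAJC27 (62 against 53), DNAJC25 (159 against 137), DNAJC18 (308 against 268), DNAJC15 (746 against 665), DNAJC1 (669 against 658) and DNAJC17 (247 against 265). Below the filter were DNAJC28 (21 against 14 counts), DNAJC12 (8 against 4), DNAJC22 (5 in each), DNAJC5B and DNAJC5G (each 1 against 0). Exons of DNAJC11, DNAJC14, DNAJC17 and DNAJC9 share from 20.4% to 27.9% of their length with a counted gene on the opposite strand, so their counts are less certain. DNAJC14 also shares 23.2% of its exon bases with an unnamed gene on the same strand, which had 153 against 38 counts. The lower limit of the DNAJC14 fold was only 1.002, and how far shared reads bear on it was not tested. The remaining members were the readthrough DNAJC25-GNG10 (490 against 391 counts), which shares 75.3% of its exon bases with GNG10, HSPBAP1 (127 against 86), named for binding a small heat shock protein, and the readthrough HSPB2-C11orf52, which had no count.

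**Figure D5:**
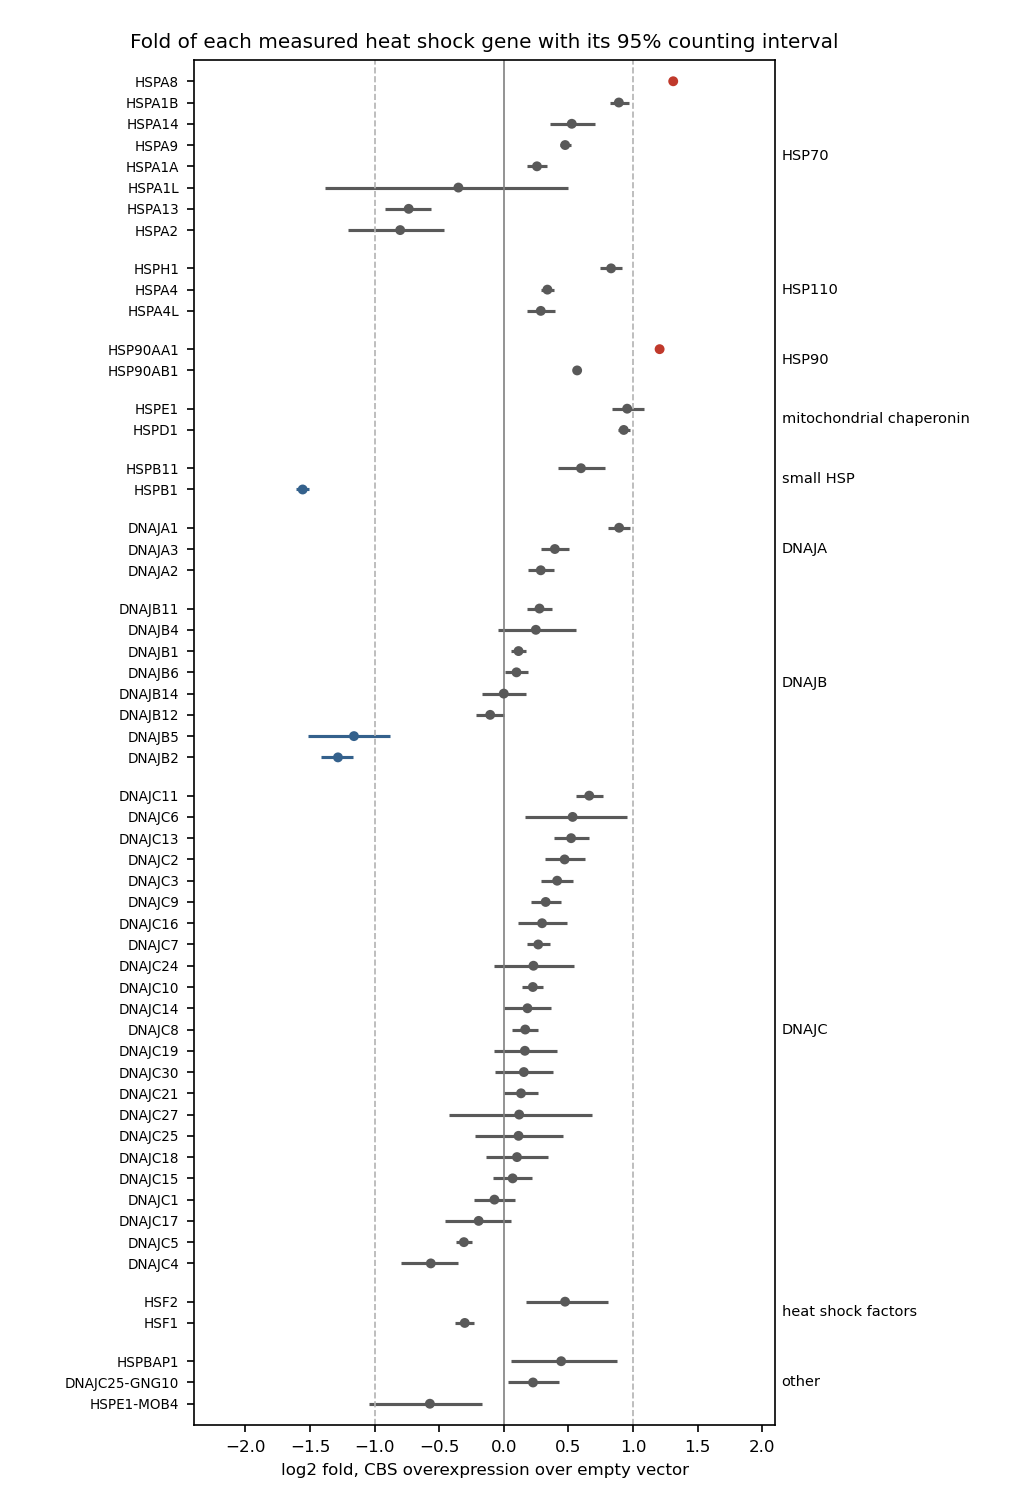
Log2 fold (CBS overexpression over empty vector) of each of the 56 measured members with its 95% counting interval, grouped by class; dashed lines mark 2-fold, red points genes at least 2-fold higher and blue points genes at least 2-fold lower. HSPA8 and HSP90AA1 lie beyond the right line, and HSPB1, DNAJB2 and DNAJB5 beyond the left one.

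By compartment, in a grouping made from textbook knowledge after the values were seen, the 8 mitochondrial members had log2 folds from 0.068 to 0.95, with a median of 0.43. Their intervals lay above a ratio of 1 for 5, where 31.6% of all measured genes did, and held it for 3. Those 3 were the import-motor proteins DNAJC15 and DNAJC19, and DNAJC30. HSPA9 and HSPD1 gave 10448 and 10463 of the 27692 mitochondrial counts with CBS. The 9 members of the endoplasmic reticulum had a median of 0.18, from -0.74 for HSPA13 to 0.41 for DNAJC3. Among these, 5 had an interval above a ratio of 1, 2 below it (background 31.1%) and 2 held it. Their summed counts were 10444 with CBS and 8991 with the empty vector, 1.09-fold higher (1.06 to 1.12), against 1.56-fold (1.53 to 1.59) for the mitochondrial members. Per length, HSPA8 made up 25.3% of the summed TPM of the whole family with CBS, against 13.98% with the empty vector, and HSP90AA1 made up 13.6% against 7.998%.

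Genes outside the set that work with these chaperones were read from lists written from general knowledge; STIP1, BAG3, HMOX1, CRYAB and TRAP1 are named after their values were seen. Of 19 HSP90 co-chaperones, 12 had an interval above a ratio of 1, 4 below it, where 31.6% and 31.1% of all measured genes did, and the median log2 fold was 0.31. None reached 2-fold, beside 1.42% of all genes higher and 5.28% lower. The highest were AARSD1 at a log2 fold of 0.65 (0.46 to 0.85), PPID, a cyclophilin, at 0.52 (0.38 to 0.67) and CHORDC1 at 0.52 (0.35 to 0.70). STIP1, which bridges HSP70 and HSP90, had 6260 counts with CBS, against 4376 with the empty vector, or 0.42 on the log2 scale (0.36 to 0.48). The immunophilin FKBP8 was lower at -0.58 (-0.63 to -0.53), or at -0.28 with the GC and length trend removed.

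Of 13 nucleotide exchange factors and HSP70 cofactors, 9 lay above a ratio of 1 and 2 below (background 31.6% and 31.1%), with a median log2 fold of 0.20. BAG2, which binds HSP70 and holds back its ubiquitin ligase partner, had 342 counts with CBS, against 168 with the empty vector, at a log2 fold of 0.91 (0.66 to 1.20). Of 19 heat-induced HSF1 targets outside the set, 18 were measured, 10 lay above a ratio of 1 and 3 below (background 31.6% and 31.1%), and the median was 0.19. These lists overlap: STIP1, CHORDC1, AHSA1, FKBP4 and FKBP5 were also counted among the HSP90 co-chaperones, and BAG3 among the HSP70 cofactors. None of the 18 reached 2-fold, where 1.42% of all genes were higher and 5.28% lower. CACYBP was the highest of them at 0.54 (0.44 to 0.65). BAG3, a strongly heat-induced cofactor, had 7362 against 5639 counts (0.29, 0.24 to 0.34), HMOX1, heme oxygenase, had 29 counts in each library, and CRYAB, the small heat shock protein alpha-B-crystallin, had 10 against 15. Of 7 other chaperones, 5 were measured, and the HSP90 forms of other compartments were both higher, HSP90B1 of the endoplasmic reticulum at 0.71 (0.68 to 0.74) and TRAP1 of mitochondria at 0.51 (0.44 to 0.58). Among 3 measured relatives and partners of the heat shock factors, HSF4, a factor of the lens, was at least 2-fold lower, at a log2 fold of -1.60 (-2.25 to -1.21) and 43 against 132 counts. Over all 52 measured genes of these lists the median was 0.20, none was at least 2-fold higher (background 1.42%) and HSF4 alone was at least 2-fold lower (background 5.28%).

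The 19 members below the filter had at most 21 counts in either library, and 5 of them had none in either. A count of 0 allows up to 3 counts, or 0.141 CPM with CBS and 0.151 CPM with the empty vector. Every interval of these members held a ratio of 1, and only large differences could have been seen at such counts. Log2 folds across genes went with transcript GC content (Spearman -0.28 over 13225 genes, -0.16 over the 56 members, a description, since genes of 1 pair of libraries are not replicates). With the GC and length trend removed, the median of the members was 0.17. In that adjusted measure HSPA8 was at 1.25, HSP90AA1 at 1.12, HSPE1 at 0.97, DNAJB2 at -1.11 and DNAJB5 at -1.07.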

How the data were processed

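RNA from 2 samples of HBEC-3KT cells, 1 with CBS and 1 with the empty vector, was compared gene by gene. Groups came from the genotype in the labels. The authors deposited 2 tables, one of expected counts (estimated, so not always whole numbers) and one of TPM, scaled for length and depth. Trimmomatic 0.39, STAR 2.6.1d, RSEM 1.3.2 and GRCh38 are named in the submitters' processing notes, with no order; the sources used here give neither annotation release nor strandedness. Reads shared by near-identical genes are divided by estimation in such counts, which bears on HSPA1A with HSPA1B and on CBS with CBSL.

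Expected counts were rounded. The 13304 genes kept reached 10 counts in 1 library and averaged 1 CPM or more. TMM factors (edgeR 4.0.16, R 4.3.3, no model fitted) were 1.03 with CBS and 0.975 with the empty vector. CPM uses these factors. For log2 folds, CBS was divided by empty vector after adding a prior count of 5. Linear folds and their exact 95% Clopper-Pearson intervals (conditional binomial) carry no prior count, cover counting error only, and take reads as independent, which PCR copies are not. Higher or lower means that the log2 fold reached 2-fold and the interval excluded a ratio of 1, and the same rule over all kept genes gives the background. These counts compare libraries, not conditions. The calculation was tested on simulated data.

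Pseudogenes were recognised from GENCODE 29 gene types and the table's descriptions. GC content and length are those of the longest GENCODE 29 transcript, and their trend was removed with a lowess curve (span 0.3; statsmodels 0.14.6). Promoters are RefSeq sequences of GRCh38.p14, matched by symbol for 65 of 75 members. Their starts can differ from those of the deposited table, whose coordinates are given elsewhere. Other settings were size factors from DESeq2 1.42.0, plain totals, log2(TPM + 1), other prior counts, filters and folds. Members with at least 2-fold differences, the heat shock factors, the most abundant member of each class and up to 4 with the largest absolute log2 fold at 100 counts or more are given in full, and all others by their counts; from the pathway lists, genes at least 2-fold apart and the 6 with the largest absolute log2 fold, of which 1 is not reported here. Members, lists and named genes were chosen with earlier results of these data known. Protein sequences were not used here. Scripts ran under Python 3.11.15 with scipy 1.17.1, pandas 2.3.3 and numpy 2.4.6.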

Additional observations from a re-analysis of the deposited data

How the results depend on the processing

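Members at least 2-fold higher numbered 2 by TMM and 4 with plain library totals or the authors' TPM, where HSPD1 and HSPE1 joined HSPA8 and HSP90AA1. At a fold of 1.5 there were 9 higher and 5 lower, and at a fold of 4 there were 0 higher and 0 lower. HSPA8, HSP90AA1, HSPB1 and DNAJB2 kept their calls under every other scaling, filter and prior count tried. DNAJB5 lost its call in TPM, and HSPA1B gained one without the GC and length trend, an alternative chosen after seeing the data. The median log2 fold of all measured genes was 0.0022 by TMM, 0.073 with plain totals and 0.090 in TPM. Log2 folds of summed counts were 1.03 for HSP70, 0.44 for HSP110, 0.89 for HSP90, 0.93 for the mitochondrial chaperonin, -1.40 for small HSP, 0.58 for DNAJA, -0.054 for DNAJB, 0.14 for DNAJC, and -0.26 for the heat shock factors by TMM. With plain totals they were 1.11 for HSP70, 0.52 for HSP110, 0.96 for HSP90, 1.01 for the mitochondrial chaperonin, -1.33 for small HSP, 0.65 for DNAJA, 0.019 for DNAJB, 0.22 for DNAJC, -0.19 for the heat shock factors, and in TPM 1.16 for HSP70, 0.60 for HSP110, 0.96 for HSP90, 1.05 for the mitochondrial chaperonin, -1.24 for small HSP, 0.67 for DNAJA, 0.055 for DNAJB, 0.23 for DNAJC, -0.15 for the heat shock factors, so the direction of the DNAJB sum depends on the scaling. Median log2 folds of classes were set against the span from the median lower to the median upper counting limit of their members. That span is not an interval of the median itself. Outside it were HSP110 (0.54 in TPM, 0.41 with totals, 0.25 without the trend), HSP90 (1.005, 0.96 and 0.82), the chaperonin (1.06 in TPM), HSP70 (0.26 with no filter) and small HSP (-0.34 in TPM, -0.17 with no filter, -0.33 without the trend). The cause was not tested. HSPA8 with its pseudogenes summed gave a log2 fold of 1.31, the value of HSPA8 alone, and HSPA1A with HSPA1B gave 0.58. No member at least 2-fold apart changed direction in any setting. No replicate could be left out with 1 library per group, and no paired analysis was possible because the groups hold no replicates. At this depth, only large differences could be seen in members under 10 counts.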

Other observations

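Pseudogenes of the family, which were left out of the set, held few counts. The 90 together had 461 counts with CBS, against 186 with the empty vector, 2.32-fold higher with CBS (1.95 to 2.76). HSPA8P1, a processed copy of HSPA8 on the X chromosome, had 327 of those counts with CBS, against 125 with the empty vector, 2.44-fold higher (1.98 to 3.03), next to 2.48-fold for HSPA8. HSP90AA2P had 32 against 11 counts, HSPD1P1 had 16 against 3 and HSPB1P1 had 5 against 12, with an interval that held a ratio of 1 for HSPB1P1. DNAJC19P9 had 18 counts with CBS, against 0 with the empty vector. Whether these reads come from the pseudogenes or from their parents was not tested.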
